A study of Mus musculus with 6 samples.

Results

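The TNF superfamily of ligands and the TNF receptor superfamily were measured in CD4 T cells sorted from the lungs of mice treated with house dust mite (HDM) or with PBS. The members were all genes whose symbol starts with Tnfsf or Tnfrsf and a digit, together with Tnf, Lta, Ltb, Ltbr, Fas, Fasl, Cd27, Cd70, Cd40 and Cd40lg. RefSeq holds 42 such genes, and 39 of them, 15 ligands and 24 receptors, had a probe set that the array's annotation pairs with exactly 1 gene, out of 22180 genes tested. Each of the 39 had 1 such probe set. Tnfsf12, Tnfsf13 and the antisense gene Tnfsf13os were not analysed here.

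Wild-type mice were sensitised and challenged with HDM, whose allergens drive an asthma-like lung response, or received PBS, a salt solution, as the control. Lung cells that carried CD45 and CD4 and lacked CD11b and the macrophage protein encoded by Adgre1 were sorted, and their total RNA was labelled with biotin and hybridised to Affymetrix mouse gene arrays, 1 array per sample, with 3 HDM and 3 PBS samples titled as biological replicates. The sources used here did not give strain, age, doses, days or the number of mice behind each sample, and p-values therefore measure the spread between these samples. Values are log2 signals normalized by the authors, with no detection call, and each probe set has a scale of its own.

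Ligands of the family are mostly trimers on the surface of activated lymphocytes and myeloid cells, and some are also shed. Their receptors recruit TRAF adaptors, which lead to NF-kappaB and to survival or effector programmes, or carry a death domain that leads to caspases. In CD4 T cells several receptors of the family, such as OX40 and CD30, act as costimulators after antigen recognition, and ligands such as CD40L and RANKL carry T cell help to B cells, dendritic cells and osteoclast precursors.

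The arrays numbered 3 had the lowest mean correlation with the other arrays of their group, 0.9905 for PBS replicate 3 and 0.9876 for HDM replicate 3, against 0.9909 to 0.9935 for the rest. After subtraction of the group means, arrays with the same number correlated over genes at 0.43 (number 1), 0.17 (number 2) and 0.53 (number 3), while pairs with different numbers ranged from −0.50 (PBS replicate 1 with HDM replicate 3) to 0.25 (PBS replicate 1 with HDM replicate 2), the latter above the value for number 2. All same-numbered correlations exceeded 0.1, and the numbers were therefore also used as pairs, by a block for the replicate number. This choice was made from the same values to which the block was then fitted. Calls made only with the block are thus no separate support for the pairing, and their p-values do not allow for this choice. The labels do not say what the numbers stand for. Genes of the sorted cells gave high signals in both groups (means of 12.52 on PBS and 12.67 on HDM arrays for Cd4, 12.82 and 12.92 for Cd3e, 12.70 and 12.63 for Ptprc, which encodes CD45), and none of these passed the test. Itgam, which encodes CD11b (7.51 and 7.49), and Adgre1 (7.10 and 7.49) did not pass either.

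Of the 15 ligands 4 rose and 0 fell: Tnfsf10, which encodes the death ligand TRAIL, Tnfsf11, which encodes RANKL, Tnfsf14, which encodes LIGHT, and Tnfsf8, which encodes the CD30 ligand, were between 1.43-fold and 2.23-fold higher on HDM arrays. Among the receptors, Tnfrsf8, which encodes CD30, rose 2.29-fold and Tnfrsf12a, which encodes Fn14, fell 1.43-fold. The other 33 members did not pass at an adjusted p of 0.05 (limma, Benjamini-Hochberg over all 22180 genes, HDM minus PBS). The 5 raised members were 12.8% of the 39, where 2.39% of all genes tested rose, and the 1 lowered member was 2.56%, where 1.56% of all genes fell. The median difference was 0.11 on the log2 scale over the members, 0.28 over the ligands and 0.04 over the receptors, beside −0.01 over all genes.

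With the replicate number as a block, 10 members were higher and 6 lower, 25.6% and 15.4% of the 39, where 5.95% of all genes were higher and 6.01% lower. These included all 5 and the 1 called without it. The added members were Cd40lg, Tnfrsf4, Tnfrsf9, Tnfrsf1b and Tnfrsf11a on the higher side and Tnfrsf1a, Tnfrsf26, Fasl, Cd27 and Tnfrsf23 on the lower side. Values of the HDM and PBS groups did not overlap for 10 members that were higher and 6 that were lower in HDM, 25.6% and 15.4%, where 10.8% and 11.8% of all genes were so separated. At an unadjusted p below 0.05, 11 members were higher and 6 lower, where 8.67% and 9.17% of all genes were.

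Single arrays moved the counts of calls made with limma. Leaving out HDM replicate 2 left 0 raised and 0 lowered members (0.816% and 0.248% of all genes), and 0 members were called lower without PBS replicate 1 (0.293% of all genes), PBS replicate 2 (0.185%) or HDM replicate 1 (0.316%). The raised members then numbered 1 without PBS replicate 1 (0.866% of all genes), 2 when PBS replicate 2 was dropped (0.798%), and 1 when HDM replicate 1 was (0.911%). With PBS replicate 3 dropped, 3 members rose and 1 fell (1.85% and 1.56% of all genes), and with HDM replicate 3 dropped the numbers were 4 and 4 (3.81% and 3.26%). Dropping both arrays numbered 3, a setting chosen after the values were seen, gave 7 raised and 6 lowered members (5.64% and 5.98% of all genes). Centring on array medians gave 3 and 1 (1.92% and 1.58%), adjustment over all probe sets 3 and 0 (1.59% and 0.861%), and array weights 5 and 3 (4.12% and 4.16%). The 5 and the 1 were called with a filter at the 25th percentile of signal, which kept 37 members (3.63% and 2.83% of the genes kept). A filter at the median kept 33 members and gave the same calls (5.66% and 5.02% of the genes kept). The 5 and the 1 were also called with a repeated quantile normalization (2.36% and 1.63% of all genes) and no intensity trend (2.41% and 1.54%). The same held for robust variance (2.39% and 1.62%) and averaged probe sets (2.29% and 1.48%).

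**Figure D1:**
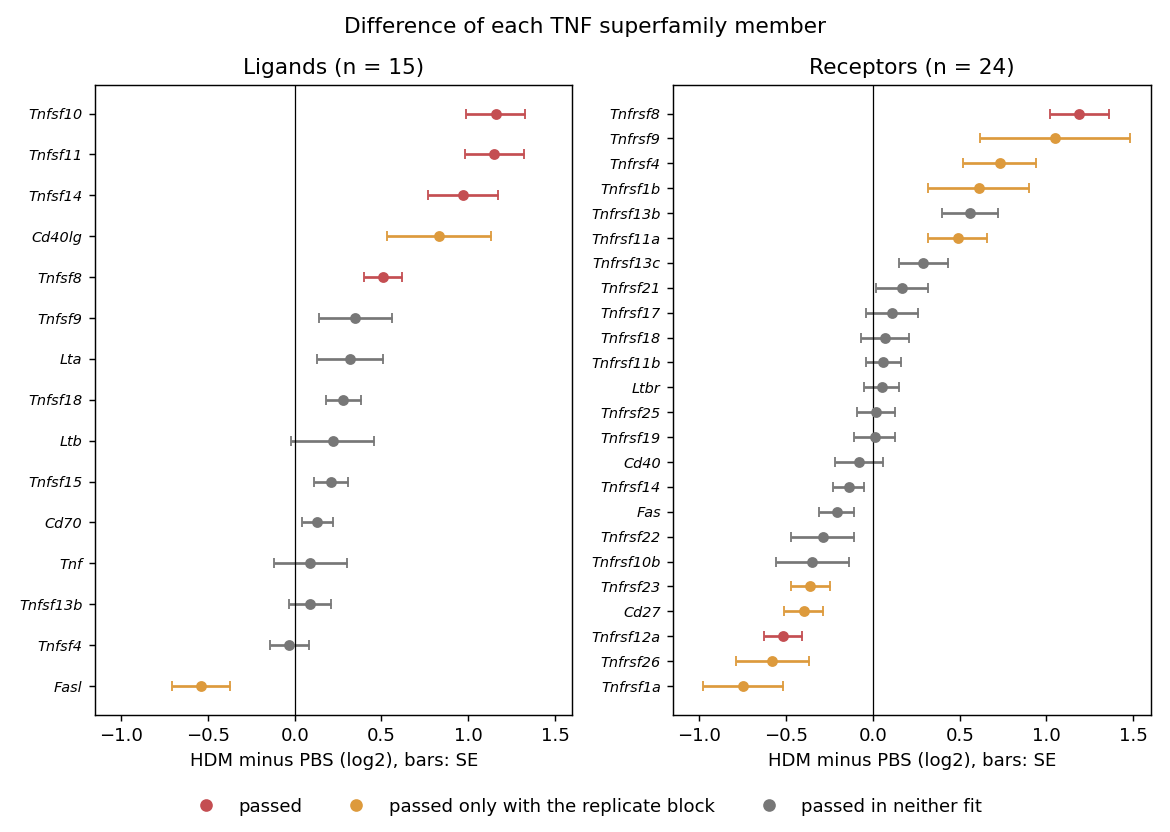
Difference of HDM minus PBS on the log2 scale for the 15 ligands (left) and 24 receptors (right), ordered by size, with bars for the SE of the limma fit; red points passed at an adjusted p of 0.05, orange points passed only with the replicate number as a block, and grey points passed in neither fit. Of the ligands, 13 lie to the right of 0, and Fasl lies farthest to the left at −0.54.

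The promoters of 4 raised members are shown because each was called higher and has a RefSeq start at the outer end of the gene. Each run is the 250 bases before the start, 5′ to 3′ on the strand of the gene, from RefSeq on GRCm38.p6. Capitals mark matches to TGANTCA, a core motif of AP-1, and to GGAAA or its reverse complement TTTCC, a core motif of NFAT, both factors that T cell receptor signals activate.
Tnfsf10, chr3:27316827-27317076, plus strand: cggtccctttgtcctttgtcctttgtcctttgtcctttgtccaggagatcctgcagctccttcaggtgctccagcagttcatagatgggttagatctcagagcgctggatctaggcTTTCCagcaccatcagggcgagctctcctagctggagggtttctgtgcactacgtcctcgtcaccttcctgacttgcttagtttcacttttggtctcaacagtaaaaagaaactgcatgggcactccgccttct
Tnfsf11, chr14:78308044-78308293, minus strand: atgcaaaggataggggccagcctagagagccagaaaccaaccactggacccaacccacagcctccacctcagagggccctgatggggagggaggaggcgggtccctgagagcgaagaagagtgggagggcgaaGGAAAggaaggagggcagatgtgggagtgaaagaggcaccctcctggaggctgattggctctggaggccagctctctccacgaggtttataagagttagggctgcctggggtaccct
Tnfsf14, chr17:57194182-57194431, minus strand: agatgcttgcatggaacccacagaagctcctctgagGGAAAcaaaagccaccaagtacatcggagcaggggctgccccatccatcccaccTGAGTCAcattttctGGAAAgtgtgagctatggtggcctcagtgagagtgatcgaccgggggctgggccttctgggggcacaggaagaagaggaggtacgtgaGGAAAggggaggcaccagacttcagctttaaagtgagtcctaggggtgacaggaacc
Tnfrsf8, chr4:145315165-145315414, minus strand: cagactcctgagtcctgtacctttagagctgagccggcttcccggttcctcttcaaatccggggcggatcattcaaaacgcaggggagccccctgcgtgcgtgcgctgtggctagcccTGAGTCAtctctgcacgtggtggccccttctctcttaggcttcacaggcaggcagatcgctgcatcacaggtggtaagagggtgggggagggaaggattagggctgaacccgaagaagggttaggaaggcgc
The AP-1 letters were present in Tnfsf14, at 160 to 154 bases before the start, and in Tnfrsf8, at 132 to 126 bases, and not in the windows of Tnfsf10 and Tnfsf11. Of all 32851 promoter windows given by RefSeq, 6.75% held them, and 5 of the 34 windows of members did, those of Fas, Tnfrsf8, Tnfrsf9, Tnfsf13b and Tnfsf14. There were windows for 30 of the 39 members. The short NFAT letters were in 55.6% of all windows and in 29 of the 34. Among these were windows of the raised Tnfsf8, Tnfsf10, Tnfsf11 and Tnfsf14 and of the lowered Tnfrsf12a. A loose NF-kappaB pattern, GGG and CC with any 5 bases between them, on either strand, was in 45.8% of all windows and in 21 of the 34. Of the 4 runs shown, those of Tnfsf11, Tnfsf14 and Tnfrsf8 held it, and its matches are not capitalised. The STAT pattern TTCNNNGAA was in 7.02% of all windows and in 8 of the 34, none of them of a member called without the block, and AGATAA on either strand, a GATA pattern, was in 9.99% and in 1 of the 34, that of Tnfsf13b. These matches describe letters only.

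Tnfsf10 (TRAIL) had log2 signals of 8.39, 8.65 and 8.15 on PBS arrays 1, 2 and 3 and of 9.75, 9.64 and 9.28 on HDM arrays 1, 2 and 3. All HDM values lay above all PBS values, and in both groups replicate 3 was the lowest. The difference was 1.16 ± 0.17 (SE, n = 3 per group, adjusted p = 0.0109 with limma), and the differences within the pairs numbered 1, 2 and 3 were 1.36, 0.99 and 1.12. The call was lost without PBS replicate 1, HDM replicate 1 or HDM replicate 2, with an adjusted p of up to 0.0602. The receptor through which TRAIL kills in the mouse, Tnfrsf10b, read 9.52, 9.86 and 9.87 on PBS and 9.19, 9.12 and 9.87 on HDM arrays, and its groups overlapped at replicate 3 (difference −0.35 ± 0.21, adjusted p = 0.438). Without HDM replicate 3 Tnfrsf10b was lower by 0.59 (adjusted p = 0.0366).

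The mouse decoy receptors for TRAIL, Tnfrsf22 and Tnfrsf23, and their relative Tnfrsf26 lie next to each other in the genome, and all 3 had lower means in HDM. Tnfrsf26 read 10.94, 10.64 and 10.25 on PBS and 10.18, 10.23 and 9.66 on HDM arrays, without overlap (−0.58 ± 0.21, adjusted p = 0.18, and 0.00522 with the replicate block). Tnfrsf23 read 8.0, 7.88 and 8.21 against 7.61, 7.68 and 7.73, also without overlap (−0.36 ± 0.11, adjusted p = 0.134, and 0.0467 with the block). Tnfrsf22 differed by −0.29 ± 0.18 and its groups overlapped (adjusted p = 0.475, and 0.143 with the block). These genes are close relatives, and how far their probe sets respond to each other's transcripts was not tested.

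Tnfsf11 (RANKL), which acts on dendritic cells and osteoclast precursors, read 8.99, 9.68 and 9.34 on PBS and 10.43, 10.63 and 10.42 on HDM arrays. The lowest HDM value was above the highest PBS value, and the HDM arrays were closer to each other (SD 0.12) than the PBS arrays (SD 0.34). The difference was 1.15 ± 0.17 (adjusted p = 0.0112), and it was lost as a call without HDM replicate 1 or HDM replicate 2, with an adjusted p of up to 0.0621. Its receptor RANK, Tnfrsf11a, read 6.49, 6.42 and 6.22 on PBS and 7.24, 6.77 and 6.58 on HDM arrays. The groups did not overlap. The difference of 0.49 ± 0.17 did not pass (adjusted p = 0.182), and it did with the block (0.0319). Tnfrsf11b, which encodes the soluble decoy osteoprotegerin, differed by 0.06 ± 0.10 (adjusted p = 0.812).

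Tnfsf14 (LIGHT), a ligand of HVEM and of the lymphotoxin beta receptor, read 7.05, 7.09 and 6.82 on PBS and 8.10, 8.27 and 7.49 on HDM arrays. The groups did not overlap, and HDM replicate 3 was clearly the lowest of its group. The difference was 0.97 ± 0.20 (adjusted p = 0.0379). Leaving out any of the 3 PBS arrays, HDM replicate 1 or HDM replicate 2 ended the call (up to 0.143), as did centring on array medians (0.0504) and adjustment over all probe sets (0.0648). HVEM itself, Tnfrsf14, differed by −0.14 ± 0.09 (adjusted p = 0.488), and Ltbr, whose main cells are stromal and myeloid, by 0.05 ± 0.10 (adjusted p = 0.849).

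Tnfsf8, the CD30 ligand, and Tnfrsf8, CD30, formed the single ligand and receptor pair, of 23 pairs compared, in which both partners passed. The ligand read 9.95, 10.13 and 9.89 on PBS and 10.36, 10.51 and 10.64 on HDM arrays, without overlap (0.51 ± 0.11, adjusted p = 0.0401). This call was lost without any 1 of the 6 arrays (adjusted p from 0.0506 to 0.156), with centring on array medians (0.0529) and with adjustment over all probe sets (0.0649). The receptor read 6.96, 7.24 and 7.13 on PBS and 7.97, 8.30 and 8.65 on HDM arrays. All HDM values of Tnfrsf8 exceeded all PBS values, and the pair differences were 1.01, 1.06 and 1.52. Its difference was 1.19 ± 0.17 (adjusted p = 0.0112), and without PBS replicate 1, PBS replicate 2 or HDM replicate 2 the adjusted p reached up to 0.0582. With the replicate block Tnfsf11 and Tnfrsf11a also passed together, and so the pairs with both partners called were 2 that rose together; the third was Tnfsf10 with its lowered decoy Tnfrsf23.

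**Figure D2:**
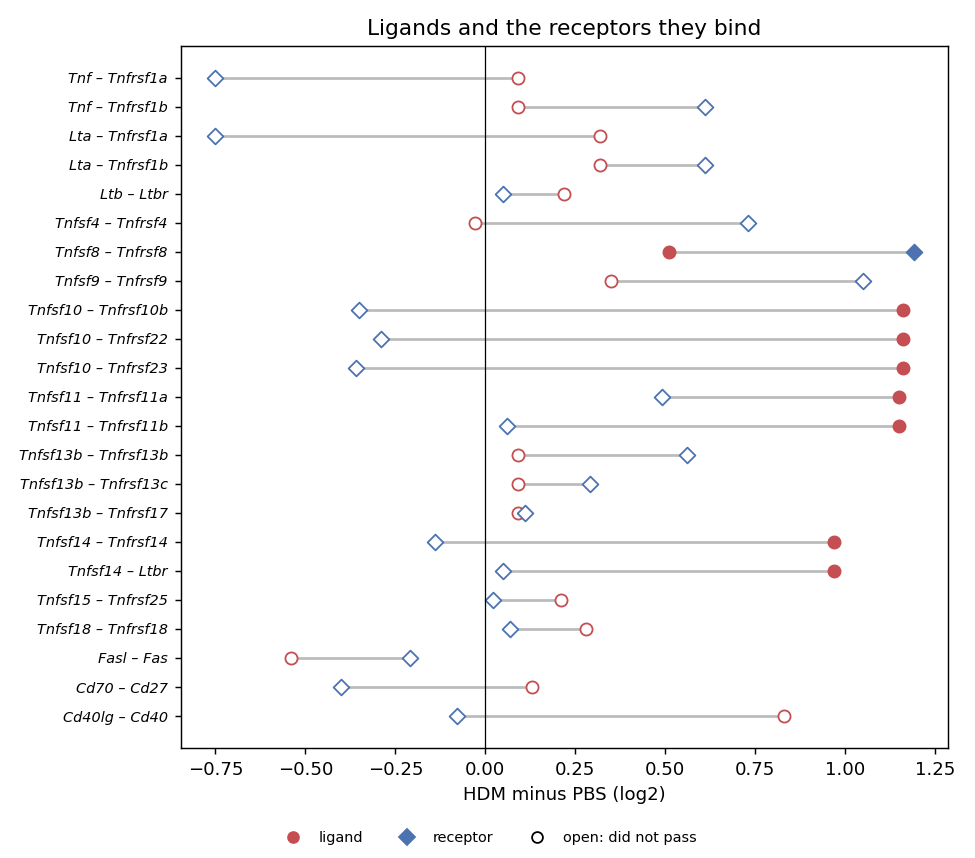
Differences of HDM minus PBS on the log2 scale for 23 ligand and receptor pairs, with circles for ligands, diamonds for receptors and filled symbols for members that passed at an adjusted p of 0.05; a line joins the partners. The CD30 ligand and CD30 are the 1 pair with both symbols filled, while the TRAIL receptors lie on the other side of 0 from their ligand.

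Unlike Tnfrsf8, the costimulatory receptors Tnfrsf4, Tnfrsf9, Tnfrsf1b and Tnfrsf18 did not pass without the block, and the first 3 of them were higher in HDM within every numbered pair. Tnfrsf4 (OX40) read 10.05, 10.33 and 10.62 on PBS and 10.68, 11.04 and 11.49 on HDM arrays, with no overlap although the lowest HDM value was only slightly above the highest PBS value. Its difference was 0.73 ± 0.21 (adjusted p = 0.113, and 0.00132 with the block), with pair differences of 0.63, 0.70 and 0.87. Tnfrsf9 (CD137) read 8.84, 9.55 and 9.88 on PBS and 9.82, 10.11 and 11.47 on HDM arrays. HDM replicate 3 was far above the other arrays, and the groups overlapped (1.05 ± 0.43, adjusted p = 0.25, and 0.01 with the block). Without HDM replicate 3 the difference of Tnfrsf9 was 0.55.

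Tnfrsf1b (TNFR2), the TNF receptor that T cells use for growth and survival signals, read 10.10, 10.85 and 11.21 on PBS and 10.99, 11.23 and 11.77 on HDM arrays. The groups overlapped, and within each pair HDM was higher, by 0.89, 0.38 and 0.56 (0.61 ± 0.29, adjusted p = 0.333, and 0.00908 with the block). Tnfrsf18 (GITR), a receptor abundant on regulatory T cells, read 11.63, 11.52 and 11.70 against 11.46, 11.59 and 12.02. Its groups overlapped and no difference was detectable (0.07 ± 0.14, adjusted p = 0.863). Beside these receptors, 8 of 14 marker genes of regulatory T cells rose and 0 fell, where 2.39% and 1.56% of all genes did. Among the 8 were Foxp3 (0.83 ± 0.11, adjusted p = 0.00851) and Il2ra, which activated T cells also express (1.16 ± 0.10, adjusted p = 0.00245). Il10, Itgae, Klrg1 and Capg were also among the 8, and other T cells can express them too. The 14 held 12 positive and 2 negative differences, down to −0.33. Without HDM replicate 3, 8 were higher and 1 lower (3.81% and 3.26% of all genes). Dropping both arrays numbered 3, a setting chosen after the values were seen, gave 10 and 2 (5.64% and 5.98%). The summed level of the 14 genes was 13.21 to 13.45 on PBS and 14.17 to 14.38 on HDM arrays on the log2 scale. The part of a change in cell makeup in the receptor values was not tested, and in such bulk samples more cells of a type and more RNA per cell cannot be told apart.

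The ligands of these receptors gave no call. Tnfsf4 (OX40L) differed by −0.03 ± 0.11 and Tnfsf18 (GITRL) by 0.28 ± 0.10 (adjusted p = 0.21), and Tnfsf9 (the CD137 ligand) by 0.35 ± 0.21 (adjusted p = 0.467). Tnfsf15 (TL1A), a ligand that promotes type 2 responses through DR3, lay higher in HDM without overlap, at 6.41, 6.24 and 6.43 on PBS and 6.61, 6.45 and 6.64 on HDM arrays, by 0.21 ± 0.10 (adjusted p = 0.338). DR3 itself, Tnfrsf25, differed by 0.02 ± 0.11, with a sign that turned under centring on array medians.

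The founding cytokines of the family and CD40L showed wide spreads among replicates. Tnf read 9.35, 9.77 and 10.26 on PBS and 9.77, 9.81 and 10.09 on HDM arrays. The HDM values lay within the range of the PBS values, and the difference was 0.09 ± 0.21 (adjusted p = 0.881). Lta, lymphotoxin alpha, read 7.65, 7.54 and 7.20 against 7.92, 8.04 and 7.38, and Ltb, its membrane partner, 10.83, 10.66 and 10.02 against 10.84, 11.02 and 10.31. Both were lowest on replicate 3 in each group, both overlapped, and the differences were 0.32 ± 0.19 and 0.22 ± 0.24 (adjusted p = 0.462 and 0.72). Tnf was by contrast highest on replicate 3 in both groups, although the 3 genes are direct neighbours.

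Cd40lg, the signal by which helper T cells license B cells and dendritic cells, read 10.38, 10.41 and 9.31 on PBS and 11.02, 11.10 and 10.49 on HDM arrays. HDM was higher without overlap, and replicate 3 was the lowest in both groups. The difference was 0.83 ± 0.30 (adjusted p = 0.188). It was 0.64, 0.68 and 1.17 within the pairs, and it passed with the block (0.00422) and without both arrays numbered 3 (0.66, adjusted p = 0.00126), a setting chosen after the values were seen. Its receptor Cd40, found on B cells and antigen-presenting cells, read 7.07, 7.21 and 7.33 against 6.96, 7.01 and 7.39 and overlapped (−0.08 ± 0.14, adjusted p = 0.834).

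**Figure D3:**
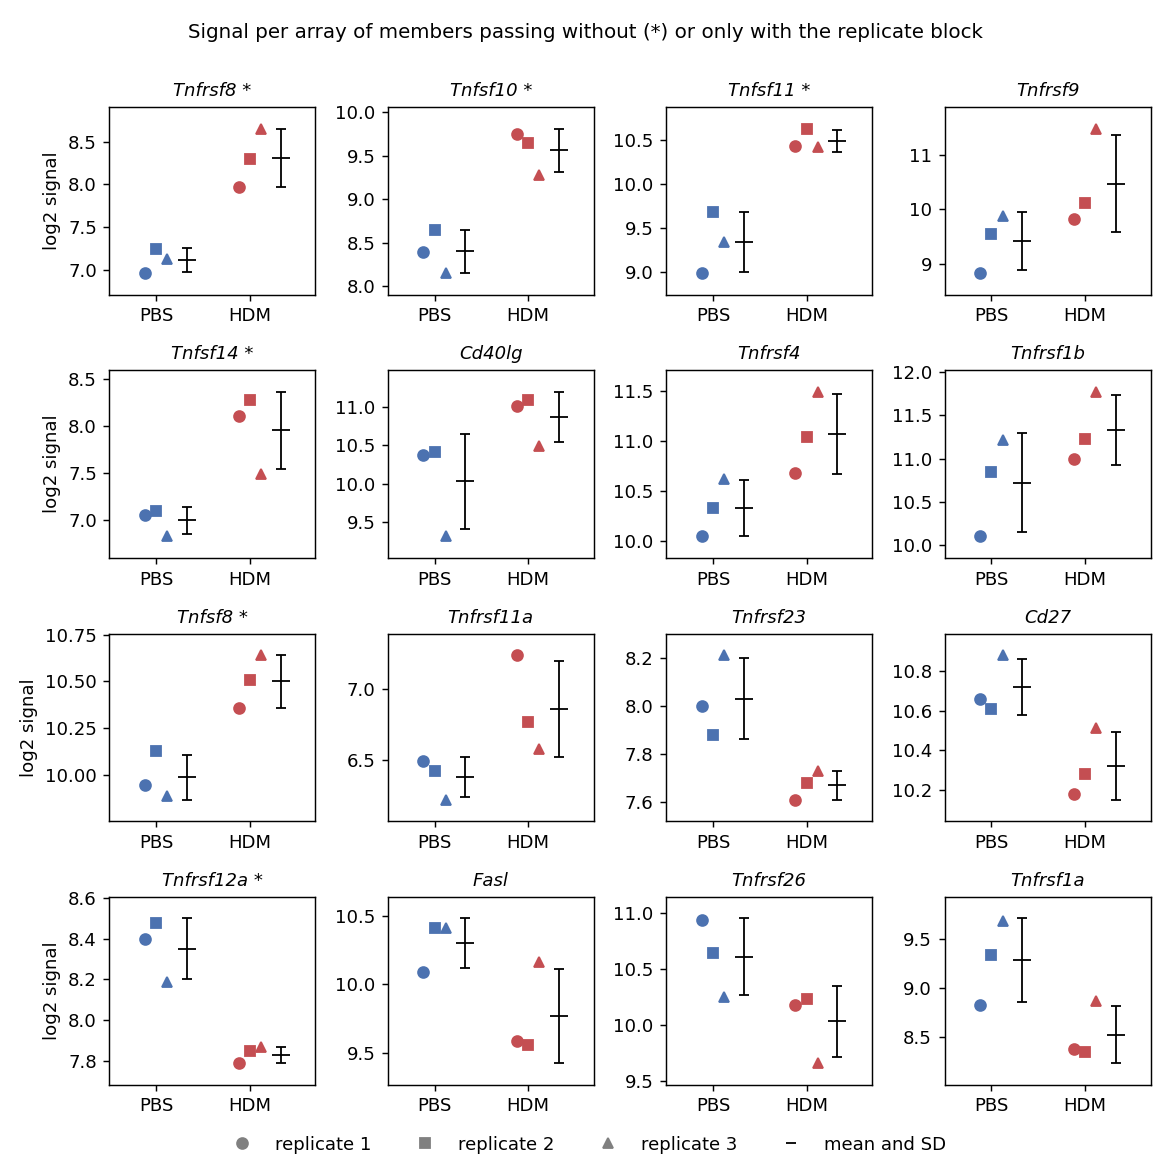
Log2 signal on each array for the 16 members that passed without (asterisk) or only with the replicate block, ordered by difference; circles, squares and triangles are replicates 1, 2 and 3, PBS in blue and HDM in red, and black bars give the mean and SD. Replicate 3 is the highest array of both groups for Tnfrsf9, Tnfrsf4, Tnfrsf1b, Tnfrsf1a, Tnfrsf23 and Cd27 and the lowest of both for Tnfsf10, Tnfsf14, Cd40lg, Tnfrsf11a and Tnfrsf26.

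On the lower side, Tnfrsf12a (Fn14), the receptor for the ligand TWEAK and mostly known from epithelial, endothelial and mesenchymal cells, was the called member. It read 8.40, 8.48 and 8.19 on PBS and 7.79, 7.85 and 7.87 on HDM arrays. All HDM values were below all PBS values (−0.52 ± 0.11, adjusted p = 0.0378). Omitting PBS or HDM replicate 1 or 2 ended the call (adjusted p of up to 0.17), as did adjustment over all probe sets (0.0615). Of 11 marker genes of endothelial, epithelial and stromal cells, 1 fell and 0 rose, where 1.56% and 2.39% of all genes did. The 1 was Pecam1, which T cells also express (−0.51 ± 0.08, adjusted p = 0.0169). Pecam1 lost its call when PBS or HDM replicate 1 or 2 was omitted (up to 0.0961). With the block 6 of the 11 were lower (Cdh5, Dcn, Kdr, Pdgfra, Pecam1 and Sftpc), where 6.01% of all genes were, and 0 were higher. The median difference over all 11 was −0.40. Their summed level was 12.77 to 13.61 on PBS and 12.59 to 13.39 on HDM arrays, and its part in the Tnfrsf12a value was not tested.

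Tnfrsf1a (TNFR1), the widely expressed TNF receptor with a death domain, had the lowest difference of any member. It read 8.82, 9.34 and 9.68 on PBS and 8.37, 8.34 and 8.86 on HDM arrays, where HDM replicate 3 overlapped PBS replicate 1. The difference of −0.75 ± 0.23 did not pass (adjusted p = 0.129), and it did with the block (0.00699), with pair differences of −0.45, −1.0 and −0.82. Within each pair Tnfrsf1a was thus lower and Tnfrsf1b higher in HDM.

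Fasl, the death ligand of cytotoxic and activated T cells, read 10.09, 10.41 and 10.41 on PBS and 9.59, 9.56 and 10.16 on HDM arrays. HDM replicates 1 and 2 lay below all PBS arrays and replicate 3 did not (−0.54 ± 0.17, adjusted p = 0.15, and 0.0243 with the block). Without HDM replicate 3 the difference was −0.73 (adjusted p = 0.0132). Among 9 markers of natural killer, CD8 and innate lymphoid cells, 3 fell and 0 rose, where 1.56% and 2.39% of all genes did. Gzma fell by 1.63 ± 0.19 (adjusted p = 0.00524), Klrd1 by 1.21 ± 0.23 (adjusted p = 0.0317) and Prf1 by 0.82 ± 0.16 (adjusted p = 0.0308). With the block the same 3 were lower and 1 was higher, where 6.01% and 5.95% of all genes were. The higher one was Arg1, which macrophages also express. It read 6.96, 6.49 and 6.47 on PBS and 9.03, 8.74 and 6.82 on HDM arrays (1.56 ± 0.51, adjusted p = 0.155, and 0.0252 with the block). Without HDM replicate 3 Arg1 passed as higher (adjusted p = 0.000865). Klrd1 and Prf1 kept their calls when HDM replicate 3 was left out and lost them when any other array was (up to 0.128 and 0.133). The summed level of the 9, with Arg1 among them, was 11.26 to 11.44 on PBS and 10.93 to 11.18 on HDM arrays. Its part in the Fasl value was not tested. Fas, the receptor, read 8.69, 8.49 and 8.40 against 8.36, 8.28 and 8.32, lower without overlap by a small amount (−0.21 ± 0.10, adjusted p = 0.364).

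Cd27, a costimulator that naive and memory T cells carry and that effector cells lose, read 10.66, 10.61 and 10.88 on PBS and 10.18, 10.28 and 10.51 on HDM arrays. No value overlapped, and every pair differed by a similar amount (−0.48, −0.34 and −0.37). The difference of −0.40 ± 0.11 did not pass (adjusted p = 0.112), and it did with the block (0.00979) and without HDM replicate 3 (0.0354). Its ligand Cd70 gave one of the dimmest signals among the members, 4.39, 4.34 and 4.38 against 4.37, 4.48 and 4.65 (0.13 ± 0.09, adjusted p = 0.533).

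The receptors of the BAFF and APRIL system are known from B cells and plasma cells. Tnfrsf13b (TACI), which read 6.84, 6.68 and 6.52 on PBS and 7.16, 7.01 and 7.55 on HDM arrays, was higher without overlap, most of all on HDM replicate 3 (0.56 ± 0.16, adjusted p = 0.101, and 0.0546 with the block). Tnfrsf13c (the BAFF receptor) differed by 0.29 ± 0.14 (adjusted p = 0.329), Tnfrsf17 (BCMA) by 0.11 ± 0.15 (adjusted p = 0.785) and the ligand Tnfsf13b (BAFF) by 0.09 ± 0.12 (adjusted p = 0.766). Of 11 measured B cell markers, 0 passed in either direction with limma, 0 with the replicate block and 0 at an unadjusted p below 0.05. Cd79a was highest on replicate 3 of both groups, at 7.23, 7.62 and 8.50 on PBS and 6.97, 7.86 and 9.38 on HDM arrays (0.28 ± 0.57), and the summed level of the 11 was 10.60 to 11.15 against 10.48 to 11.71. Of 8 plasma cell markers 0 passed with limma. With the block 2 were higher and 1 lower, where 5.95% and 6.01% of all genes were. At an unadjusted p below 0.05, 2 were higher, where 8.67% of all genes were.

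Tnfrsf21 (DR6) and Tnfrsf19 (TROY), receptors best known from the nervous system and epithelia, differed by 0.17 ± 0.15 and 0.01 ± 0.12, the second with a sign that turned under centring and under repeated quantile normalization. The macrophage and monocyte list, whose cells also make ligands of the family, held 13 measured genes. Of these 2 rose and 0 fell, where 2.39% and 1.56% of all genes did. The 2 were Chil3 (2.11 ± 0.38, adjusted p = 0.0248) and Ccr2, which effector T cells also express (1.85 ± 0.09, adjusted p = 0.000178). Lyz2 (0.42 ± 0.19, adjusted p = 0.293) and Cd68 (0.20 ± 0.26, adjusted p = 0.773) did not pass. Chil3 lost its call when PBS or HDM replicate 1 or 2 was omitted (adjusted p of up to 0.11). The summed level of the list was 12.35 to 12.58 on PBS and 13.21 to 13.42 on HDM arrays, and its part in the members' values was not tested. Of 10 dendritic cell markers 1 rose and 0 fell, where 2.39% and 1.56% of all genes did. The 1 was Itgax, which some T cells also express (1.06 ± 0.22, adjusted p = 0.038). Itgax lost the call without any 1 of the PBS arrays or HDM replicate 2 (up to 0.132). The summed level of the 10 was 11.47 to 11.78 on PBS and 11.72 to 12.11 on HDM arrays. Granulocyte markers gave 0 of 10 calls with limma and 0 with the block. At an unadjusted p below 0.05, 1 was lower, where 9.17% of all genes were.

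Of the 39 members, 18 lie in 7 groups of direct neighbours among the protein-coding genes of RefSeq's GRCm38.p6 assembly, 4 groups of 3 and 3 groups of 2. Differences of neighbours had unequal sizes. Tnfrsf8 (1.19) lies beside Tnfrsf1b (0.61), Tnfrsf4 (0.73) beside Tnfrsf18 (0.07), and Tnfsf8 (0.51) beside Tnfsf15 (0.21). Tnfsf14 (0.97) lies beside Cd70 (0.13), which is followed by Tnfsf9 (0.35). Fasl (−0.54) is next to Tnfsf18 (0.28), which is next to Tnfsf4 (−0.03). Tnfrsf26, Tnfrsf22 and Tnfrsf23 (−0.58, −0.29 and −0.36) were the group of 3 in which every difference was negative. Every difference was positive for Ltb, Tnf and Lta (0.22, 0.09 and 0.32) and for Tnfsf9, Cd70 and Tnfsf14.

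The genes through which the receptors signal were examined in 4 lists with 63 measured genes, of which 3 rose, 1 fell and 59 did not pass, 4.76% and 1.59% beside 2.39% and 1.56% of all genes. All 4 calls lay among the 17 measured genes of the death receptor pathway. Bcl2, which protects resting T cells from mitochondrial death, read 11.92, 11.73 and 11.75 on PBS and 10.91, 10.87 and 11.24 on HDM arrays. All its HDM values were lower (−0.80 ± 0.11, adjusted p = 0.00991), and a second, dimmer probe set differed by −0.43. Bcl2l1, which encodes the related survival protein Bcl-xL, read 7.61, 7.77 and 7.73 against 8.33, 8.26 and 8.90, higher on every HDM array (0.79 ± 0.17, adjusted p = 0.0443).

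Apaf1, the scaffold of the apoptosome, rose by 0.65 ± 0.09 (adjusted p = 0.0109), from 9.39, 9.41 and 9.21 to 10.06, 9.99 and 9.91. Mlkl, the effector of necroptosis, rose by 0.45 ± 0.09 (adjusted p = 0.0371), from 6.50, 6.68 and 6.55 to 6.99, 7.05 and 7.04. All 4 depended on single arrays. Bcl2 lost its call when PBS or HDM replicate 1 or 2 was omitted (adjusted p of up to 0.0535), Apaf1 without PBS replicate 2, HDM replicate 1 or HDM replicate 2 (up to 0.0603), Bcl2l1 without any array but HDM replicate 3 (up to 0.154), and Mlkl without any 1 of the 6 (0.0506 to 0.143). Bcl2l1 also lost it with repeated quantile normalization (0.052), Mlkl with centring on array medians (0.0507) and without both arrays numbered 3 (0.0592), and both with adjustment over all probe sets (0.0741 and 0.0625). With the block 5 of the 17 were higher and 3 lower, where 5.95% of all genes were higher and 6.01% lower. Ripk3 and Bak1 were added above and Mcl1 and Bcl2l11 below.

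TRAF adaptors and their partners gave 0 calls among 11 genes with limma (median difference −0.11). At an unadjusted p below 0.05, 1 was higher and 1 lower, where 8.67% and 9.17% of all genes were. With the block Tank was higher (0.39) and Tnip1 lower (−0.33), 9.09% each, where 5.95% and 6.01% of all genes were. Of 24 NF-kappaB subunits, kinases and inhibitors 0 passed with limma, while 2 were higher and 6 lower at an unadjusted p below 0.05 (median −0.05), where 8.67% of all genes were higher and 9.17% lower at that threshold. With the block 1 of the 24 was higher (4.17%) and 4 were lower (16.7%), where 5.95% and 6.01% of all genes were. Nfkbid was the higher gene (0.54). Map3k14, the kinase of the alternative pathway (−0.67), Relb, a subunit of that pathway (−0.49), Birc3 (−0.28) and Ikbkb (−0.26) were lower. The 11 related receptors, ligands and proteases outside the symbol rule gave 0 calls with limma. At an unadjusted p below 0.05, 2 of them were higher, where 8.67% of all genes were. With the block Edaradd (0.63), Rhbdf2 (0.37) and Adam10 (0.29) were higher, 27.3% of the 11, where 5.95% of all genes were. Adam17, the protease that sheds TNF and its receptors, differed by 0.21 ± 0.09 (adjusted p = 0.281).

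**Figure D4:**
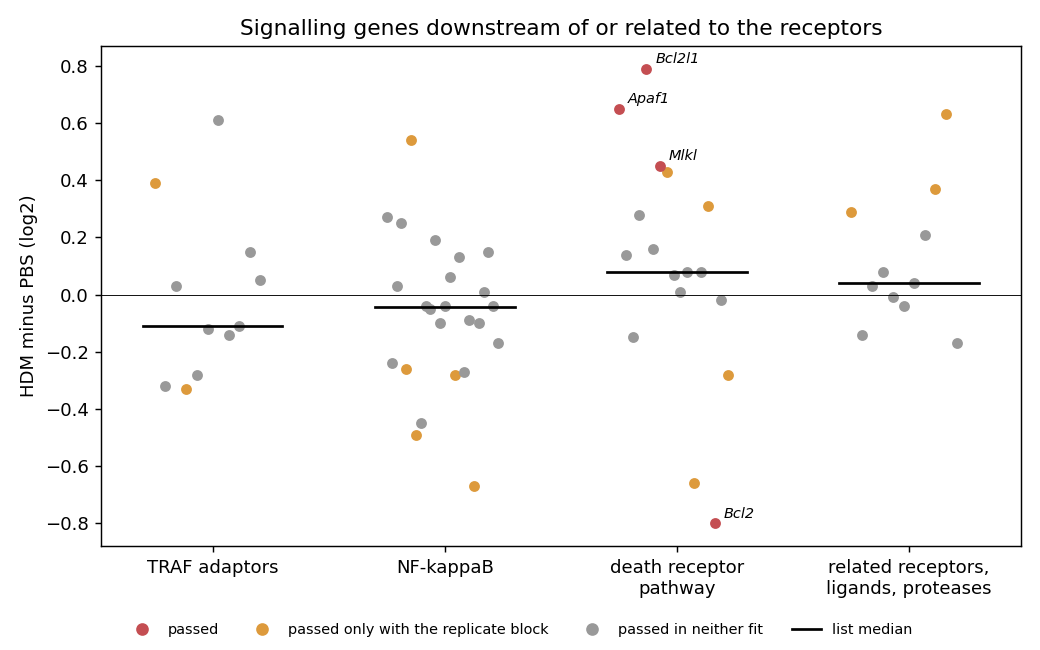
Difference of HDM minus PBS on the log2 scale for each measured gene of the 4 pathway lists, 63 genes in all; red points passed at an adjusted p of 0.05 and are named, orange points passed only with the replicate block, grey points passed in neither fit, and black lines are list medians. All 4 red points lie in the death receptor pathway.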

How the data were processed

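CD4 T cells of the lung from HDM-treated and PBS-treated mice were measured on 6 arrays, 3 per group. The authors deposited log2 signals per probe set made with RMA, per the submitters' processing notes, which give no version. Quantile normalization within RMA hides any change in total RNA per cell (array medians were 6.57 to 6.64). With 3 arrays per group precision is low. Any pair of arrays shared at most 11 identical values of 33960, so no array was a copy of another.

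Gene names came from the annotation of the array platform: 23521 had 1 gene symbol, 1814 several and 8625 none here. For each of 22180 genes the brightest probe set by mean over the 6 arrays was used, with no filter on dim genes. Groups were compared in R 4.3.3 with limma 3.58.1 (lmFit, eBayes with an intensity trend), two-sided, with Benjamini-Hochberg adjustment over all genes and a threshold of 0.05. The script was tested on simulated data. Errors are moderated SEs. A summed level is the log2 of the summed linear signals of a list.

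Members, 4 pathway lists, 9 marker lists and the tests were chosen with earlier results of these data known. Every member was named. Values on each array were given for members that passed with or without the replicate block, that did not overlap and differed by at least 0.5, or that were on a set list (Tnf, Lta, Ltb, Cd40lg, Cd40, Fas, Fasl, Cd27, Cd70, Tnfsf11, Tnfrsf4, Tnfrsf9, Tnfrsf18); Tnfrsf10b and Tnfsf15 were added after their values were seen. Of pathway lists the passing genes were named, and those that passed only with the block, with Adam17, were named after their values were seen. Some listed genes were not analysed here. The pairing of replicate numbers rests on the data, since the labels do not explain the numbers.

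Other settings tried were the replicate block, each array left out in turn, array weights, centring each array on its median, quantile normalization run again, signal filters (25th percentile, median), no intensity trend, robust variance, averaging a gene's probe sets, and adjusting over every probe set. The setting without both arrays numbered 3 was chosen after seeing the data. Promoter windows came from RefSeq's table.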

Additional observations from a re-analysis of the deposited data

How the results depend on the processing

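The 5 raised members and the 1 lowered member were called again, the same genes, with both filters on dim genes, repeated quantile normalization, no intensity trend, robust variance and averaged probe sets. The raised members numbered 3 with centring on array medians and with adjustment over all probe sets, 10 with the replicate block, and 0 to 4 when 1 array was left out. The lowered members numbered 3 with array weights, 0 with adjustment over all probe sets, 6 with the replicate block, 6 without both arrays numbered 3, and 0 to 4 when 1 array was left out. Without both arrays numbered 3 the raised members numbered 7, where 5.64% of all genes were higher and 5.98% lower. Of the pathway genes, 3 raised as reported, 5 were raised with array weights, 1 with adjustment over all probe sets, 10 with the replicate block, 6 without both arrays numbered 3, and 0 to 3 without 1 array. The lowered pathway genes, 1 as reported, numbered 2 with either filter on dim genes, 3 with array weights, 8 with the replicate block, 12 without both arrays numbered 3 and 0 to 7 without 1 array. The cause of these shifts was not tested; leaving out HDM replicate 3 raised the counts over all genes to 845 higher and 722 lower, while leaving out any other 1 array lowered the count of higher genes. Over all genes, array weights called 914 higher and 923 lower and the replicate block 1319 and 1334, beside 531 and 345 as reported, and adjustment over all probe sets called 352 and 191.

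Members near 0, none of them called, changed sign when 1 array was left out. The differences then ran from −0.126 to 0.327 for Tnf, −0.023 to 0.428 for Ltb, −0.009 to 0.239 for Tnfrsf17, −0.096 to 0.186 for Tnfrsf18, −0.105 to 0.096 for Tnfrsf19, −0.065 to 0.079 for Tnfrsf25 and −0.133 to 0.039 for Tnfsf4. Tnfrsf18 was also below 0 without both arrays numbered 3 (−0.053), Tnfrsf19 with repeated quantile normalization (−0.013) and centring (−0.014), and Tnfrsf25 with centring (−0.004). The replicate block changed the call of 10 members, all named with their values above, and of no other member. With 3 arrays per group the block leaves few residual degrees of freedom. No detection call was given, so how far dim members such as Cd70 and Tnfsf18 lie above background is not known here.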
